A study of Homo sapiens with 11 samples.

Results

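The sites described here are the glucocorticoid receptor (GR) binding sites of Ishikawa cells, a line grown from a human endometrial cancer, after 1 h with dexamethasone and estradiol together (called the combination here) or with dexamethasone alone. They are the 3443 peaks of the authors' 2 GR lists, out of 90458 peaks in the 8 lists of the series, and 1628 of them were called with the combination and 1815 with dexamethasone. Peaks of the 2 lists were matched when they overlapped by at least 1 bp on hg19, which left 2408 distinct sites. A combination peak with a dexamethasone counterpart is called kept and one without it new, and a dexamethasone peak without a combination counterpart is called missing. These words describe calls in a list, not levels of binding.

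Per the labels, both groups received 100 nM dexamethasone, a synthetic GR ligand, and the combination cells also received 10 nM estradiol, which binds the estrogen receptor (ER). Both groups were grown for several days without phenol red and with charcoal-treated serum, a medium low in steroid hormones, and were precipitated with the same GR antibody. There was 1 library a group, and whether it pools cultures is not given in the sources used here, so no replicate spread and no p-value can be given. The ER lists of the combination and of estradiol alone (1 h), and the acetylated histone H3 lysine 27 (H3K27ac) lists of vehicle, estradiol, dexamethasone and the combination (8 h), served as further readouts at the same positions. The GR sample treated with vehicle was not analysed here.

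GR is a nuclear receptor that stays mostly in the cytoplasm until a glucocorticoid binds it, then enters the nucleus and binds glucocorticoid response elements or sits on DNA beside other factors. Most GR sites in any cell type lie away from promoters, in chromatin that is already open, and they differ between cell types. ER is a related receptor with its own response element. In the endometrium estrogen drives epithelial growth, and glucocorticoids are known to oppose some estrogen responses in the uterus. H3K27ac marks active promoters and enhancers.

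The combination library held 5206574 usable tags and the dexamethasone library 6353466, and 13% of tags were redundant in each. The authors' caller scaled the dexamethasone library to 5735043 tags and left the combination library at its own depth. Pileup, the authors' own value for fragment coverage at the summit, ran between 8 and 178 with a median of 26 in the combination list, and between 8.12 and 167.9 with a median of 27.98 in the dexamethasone list. Because only 1 tag per position and strand was counted, the largest pileup that could be reached was 188 fragments with the combination and 186 before scaling with dexamethasone, and 3 combination sites and 6 dexamethasone sites lay within 10% of it. Pileups were therefore ranked within each list, as a percentile in which 100 is the highest, and not compared as levels.

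With estradiol added, 600 of 1628 combination sites were new and 1028 were kept. The new share was 36.9% (95% exact Clopper-Pearson interval 34.5% to 39.3%, over peaks, covering counting error only, as do all intervals on shares below). Of the 1815 dexamethasone sites, 784 were missing, 43.2% (40.9% to 45.5%), and 1031 were kept. The missing list came from the deeper library, and the part of depth in either share was not tested.

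The strong end of the lists differed between new and missing sites. Of the combination sites of rank 1 to 100 by pileup, 15 were new. None of the dexamethasone sites of rank 1 to 100 was missing, 0 of 100, and a share of up to 3.62% lies within the exact interval. Down to rank 200, with ties kept, 41 of 205 combination sites were new, 20%, and 4 of 209 dexamethasone sites were missing, 1.91%. Both lists nevertheless shared much of their upper end: 63 of the combination sites of rank 1 to 100 matched a dexamethasone site of rank 1 to 100.

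Among the strongest 25% of combination sites, 88 of 412 were new, 21.4% (17.5% to 25.6%). The share was 30.4%, 42.0% and 53.6% in the following 3 classes, the last being the weakest 25%. Among the strongest 25% of dexamethasone sites, 43 of 462 were missing, 9.31% (6.82% to 12.3%), and the following 3 classes gave 41.6%, 60.1% and 63.1%. Unmatched sites were thus most frequent among weak peaks in both lists. The new share was the larger in the strongest class and the missing share in the 3 others. The intervals were apart in the first 3 classes and overlapped in the weakest, where they ran from 48.5% to 58.6% for new and from 58.4% to 67.6% for missing sites.

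**Figure D1:**
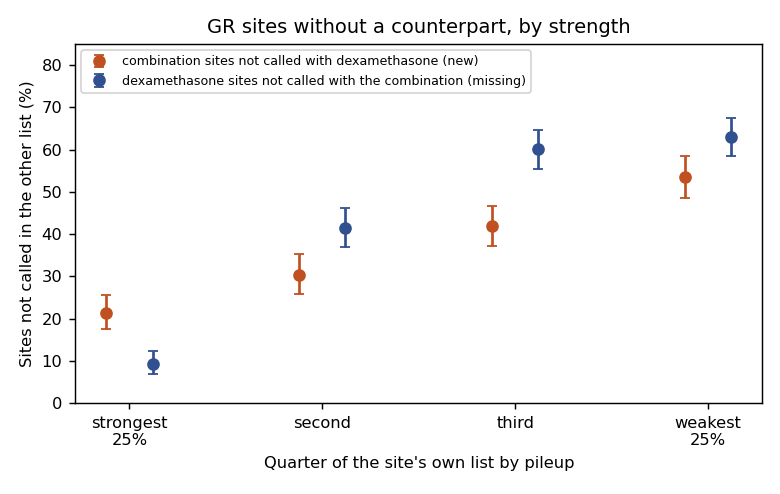
Share of GR sites without a counterpart in the other list (y axis, %), by class of the site's own pileup from the strongest to the weakest 25% (x axis), with exact 95% intervals over peaks. New combination sites stand at 21.4% in the strongest class and missing dexamethasone sites at 9.31%, and missing sites stand higher in the 3 weaker classes, with overlapping intervals in the weakest.

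The median pileup of new sites was 21 and that of kept sites was 29 in the combination list. In the dexamethasone list kept sites had a median of 36.11 and missing sites one of 22.57. The authors' −log10 p was 23.8 for new and 33.0 for kept sites of the combination list, and 41.1 for kept and 20.9 for missing sites of the dexamethasone list. The median fold enrichment over the control was 11.9 for new and 14.7 for kept combination sites, and 16.9 for kept and 10.6 for missing dexamethasone sites. New and missing sites were therefore weaker than the kept sites of their own list on all 3 of these values.

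The strongest new sites were as high as kept sites near the top of the list. The first, on chromosome 3 150562321 to 150562612, had a pileup of 116, rank 10 of the combination list, over a control background of 0.28 fragments. It lies upstream of SIAH2, an estrogen-induced ubiquitin ligase gene. H3K27ac was called there with estradiol and with the combination, and not with vehicle or dexamethasone. The second, on chromosome 9 132321100 to 132321354, had a pileup of 112 and rank 16. A site on chromosome 3 194814987 to 194815294 had a pileup of 105 and rank 19, and one on chromosome 6 6703957 to 6704287 had 102 and rank 25. All 3 of these carried H3K27ac in all 4 lists. The fifth, on chromosome 2 238467696 to 238467917, had a pileup of 94 and rank 39 and lies between MLPH, a melanosome transport gene, and RAB17, a small GTPase gene. It was acetylated with estradiol and the combination only, as was the SIAH2 site. All 5 of these new sites lay on an ER site of both ER lists.

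The strongest missing sites stood lower in their list and differed in their control values. The first, on chromosome 5 170850059 to 170850307, had a pileup of 72.21, rank 144 of the dexamethasone list, over a control background of 8 fragments and with a fold enrichment of 8.13. The sites on chromosome 1 154989832 to 154990013 and chromosome 21 40159540 to 40159760 shared a pileup of 71.31 and rank 150, over 3 and 4 control fragments. The chromosome 21 site lies upstream of ETS2, an ETS family transcription factor gene. The site on chromosome 12 52916622 to 52916755, near the keratin gene KRT5, had a pileup of 65.89 and rank 187 over 11 control fragments. The site on chromosome 2 1629155 to 1629466 had 63.19 and rank 210 over 10 control fragments. All 5 missing sites were acetylated with vehicle, and only the chromosome 12 one of them lay on an ER site, that of the estradiol list.

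This control background moved with the missing class among the stronger sites. It is the authors' pileup and fold, solved for the control and set to the depth of the control library. In the strongest 25% of each list its median was 2 fragments at new sites (95% order-statistic interval 1.32 to 2) and 1.22 at kept combination sites, against 1.21 at kept dexamethasone sites and 4 at missing sites (3 to 6). In the next class it was 1 at new and at kept combination sites, against 1 at kept dexamethasone and 3 at missing sites. Among the stronger 50% of combination sites, 49 of 192 with at least 3 control fragments were new, 25.5%, and 155 of 601 with fewer, 25.8%. Among the stronger 50% of dexamethasone sites, 131 of 289 with at least 3 control fragments were missing, 45.3% (39.5% to 51.3%), and 104 of 635 with fewer, 16.4% (13.6% to 19.5%). Over all combination sites, 29.1% with at least 3 control fragments were new (23.3% to 35.5%), and 38.1% with fewer (35.6% to 40.7%). Over all dexamethasone sites, 49.6% with at least 3 were missing (44.1% to 55.0%), and 41.7% with fewer (39.2% to 44.3%). The part of the control background in the missing calls was not tested. Over sites with fewer than 3 control fragments the kept share was 61.9% of the combination list, against 58.3% of the dexamethasone list, within the intervals of the shares over all sites.

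Few unmatched sites lay within 1 kb of a site of the other list. Lists of called peaks do not show signal below the calling threshold. The nearest gap to a site of the other list was 22 bp for a new and 22 bp for a missing site, and the median gap was 174948 bp for new and 201818 bp for missing sites. A dexamethasone site lay within 1 kb of 28 new sites, and a combination site lay within 1 kb of 48 missing sites. At 10 kb the numbers were 95 of 600 new sites and 127 of 784 missing sites.

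ER occupancy differed between the classes. An ER site of the combination list lay under 463 of 600 new sites, 77.2% (73.6% to 80.5%). It lay under 305 of 1028 kept combination sites, 29.7% (26.9% to 32.6%), and under 67 of 784 missing sites, 8.55% (6.68% to 10.7%). The intervals of the 3 classes did not overlap. With the ER list of estradiol alone, called in cells that received no dexamethasone, the shares were 75% of new, 25.1% of kept combination and 13.6% of missing sites. The GR and ER lists come from separate libraries with separate antibodies.

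ER occupancy of new sites was highest among the strongest. In the strongest 25% of the combination list, 86 of 88 new sites lay on a combination ER site, 97.7%, and 155 of 324 kept sites did, 47.8%. In the weakest 25% the shares were 57.3% of new sites and 12% of kept sites. At missing sites the share was 11.6% in the strongest and 3.55% in the weakest 25% of the dexamethasone list. Kept sites of that list had 32.5% in the strongest 25%. With the estradiol ER list the strongest missing sites were not lower, with overlapping intervals. That ER list lay under 27.9% of them (15.3% to 43.7%) and 22.9% of the strongest kept dexamethasone sites (18.97% to 27.2%). In each weaker class missing sites had the lower share with both ER lists. The ER sites under new GR sites also ranked higher in the combination ER list, with a median percentile of 83.3 by pileup, than those under kept sites, 62.4, or under missing sites, 48.1. The median distance between the GR summit and the combination ER summit was 17 bp at new sites (15 to 19 bp). It was 25 bp at kept combination sites (21 to 30 bp). At missing sites it was 37 bp (25 to 50 bp) and at kept dexamethasone sites 33 bp (28 to 41 bp), with overlapping intervals. With the estradiol ER list the medians were 18.5 bp at new and 29 bp at kept combination sites. They were 28 bp at missing sites (24 to 38 bp) and 39 bp at kept dexamethasone sites (32 to 46 bp).

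H3K27ac after 8 h also differed by class. A pattern of acetylation with estradiol and the combination, and with neither vehicle nor dexamethasone, was found at 98 of 600 new sites, 16.3% (13.5% to 19.5%). It was found at 20 of 1028 kept combination sites, 1.95% (1.19% to 2.99%), and at 8 of 784 missing sites, 1.02% (0.44% to 2.0%). Of those 98 new sites, 90 lay on a combination ER site. The opposite pattern, with dexamethasone and the combination and with neither vehicle nor estradiol, was found at 8 new sites, 1.33% (0.58% to 2.61%), at 44 kept combination sites, 4.28% (3.13% to 5.70%), and at 12 missing sites, 1.53%. Acetylation with vehicle, estradiol and the combination but not dexamethasone marked 8.83% of new, 2.33% of kept combination and 7.02% of missing sites.

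Acetylation with vehicle, that is without added hormone, was called at 32.3% of new sites (28.6% to 36.2%), 33.9% of kept combination sites (31.0% to 36.8%) and 41.6% of missing sites (38.1% to 45.1%). New and kept sites overlapped in this share, and the interval of missing sites lay above both. No H3K27ac peak of any of the 4 lists lay on 39.8% of new sites, 52.7% of kept combination sites and 50.3% of missing sites. Among sites on a combination ER site, vehicle acetylation was called at 165 of 463 new sites, 35.6%, at 175 of 305 kept combination sites, 57.4%, and at 54 of 67 missing sites, 80.6%.

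Kept sites were paired 1 to 1 by nearest summit, which gave 1024 pairs, since 7 combination peaks and 4 dexamethasone peaks overlapped more than 1 peak of the other list. Named first are the 5 pairs with the highest mean percentile over both lists, a choice that fixes high ranks in both. Of the combination sites of rank 1 to 50, 26 matched a dexamethasone site of rank 1 to 50, and 7 were new. The peak on chromosome 9 132195062 to 132195396 had a pileup of 178, rank 1, with the combination and 166.99, rank 2, with dexamethasone. The peak on chromosome 10 123880581 to 123880924, inside TACC2, had 176 and rank 2 with the combination, against 167.9 and rank 1 with dexamethasone. The peak on chromosome 3 188665825 to 188666067 had 175 with the combination and 164.28 with dexamethasone, rank 3 in both. The peak on chromosome 12 6485341 to 6485615, in SCNN1A, the alpha subunit gene of the epithelial sodium channel, had 157 and rank 4 with the combination, against 164.28 and rank 3 with dexamethasone. The peak on chromosome 3 127023005 to 127023397 had 131 and rank 5, against 150.74 and rank 7.

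Further sites were chosen from places 6 to 15 by mean percentile after their values were seen. High ranks in both lists follow from that choice. PER1, DDIT4, ZBTB16 and PPARGC1A among them are known glucocorticoid-induced genes, and other sites at such genes were not examined as a group. The site upstream of PER1, a circadian clock gene, on chromosome 17 8057690 to 8057920, had a pileup of 112 and rank 16 with the combination, against 154.36 and rank 5 with dexamethasone. It was acetylated with dexamethasone and the combination only. The site upstream of DDIT4, an inhibitor of mTOR signalling, on chromosome 10 74008647 to 74008854, had 118 and rank 9, against 145.33 and rank 8. The site inside ZBTB16, a zinc finger transcription factor gene, on chromosome 11 114030741 to 114031049, had 114 and rank 12, against 126.37 and rank 21. The site in KRT7, a keratin of simple epithelia, on chromosome 12 52636962 to 52637174, had 128 with the combination and 152.55 with dexamethasone, rank 6 in both. The site upstream of PPARGC1A, a transcriptional coactivator gene, on chromosome 4 23932677 to 23932957, had 98 and rank 30, against 140.82 and rank 9. A second combination peak of pileup 13 lay beside it, and both overlapped the 1 dexamethasone peak of 482 bp.

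Over all 1024 pairs the percentile by pileup was lower with the combination in 672 pairs and higher in 352. The median shift, combination minus dexamethasone, was −3.96 percentile points (95% order-statistic interval −5.10 to −3.18), and the middle 50% of pairs lay between −14.4 and 3.41 points. Spearman's rho of the percentiles across pairs was 0.811, given as a description over sites, which are not independent replicates. At least 25 points higher with the combination were 56 pairs, 5.47%, and at least 25 points lower were 111 pairs, 10.8%. With kept sites ranked among themselves, so that new and missing sites take no place, the median was −0.59 points (−1.37 to 0.20), an interval that includes 0. In that ranking 77 pairs were at least 25 points higher with the combination and 67 at least 25 points lower, so the excess of lower pairs holds for ranks in the whole lists and not for ranks among kept sites.

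A stricter count took the exact Poisson interval of each pileup in whole fragments, turned it into percentiles of its whole list, and kept pairs whose intervals were apart. By this count 23 pairs were higher with the combination, 2.25%, and 47 were lower, 4.59%. In the strongest 25% of the dexamethasone list lay 44 of the lower pairs and 4 of the higher ones. The count was not repeated with ranks among kept sites only. All 23 of the higher pairs lay on a combination ER site, and 22 of them on an estradiol ER site. Of the 47 lower pairs, 4 lay on a combination ER site. Among all 1024 pairs 304 did, 29.7%. At the limit of 25 points, 41 of 56 higher pairs, 73.2%, and 12 of 111 lower pairs, 10.8%, lay on a combination ER site.

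**Figure D2:**
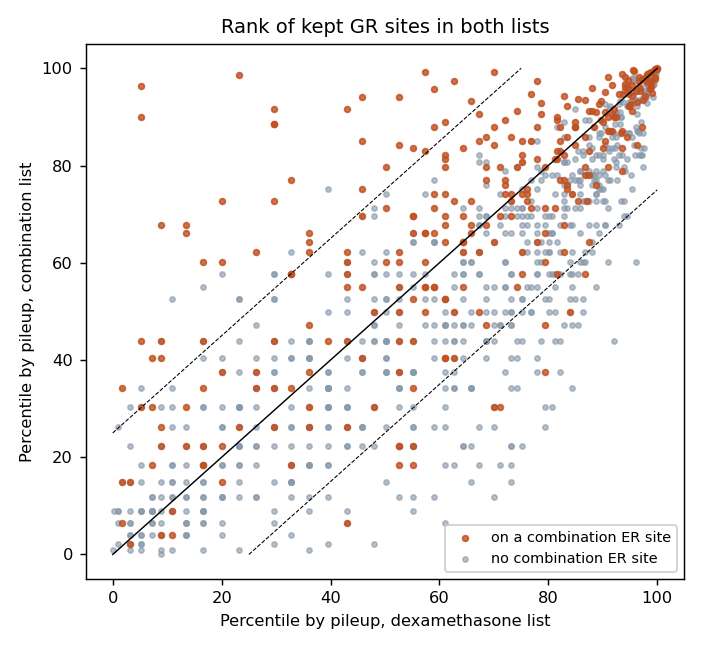
Percentile by pileup of 1024 kept GR sites, combination list (y axis) against dexamethasone list (x axis); each point is a pair, orange where a combination ER site lay under it and grey where none did. The solid line marks equal percentiles and the dashed lines a shift of 25 points; 41 of the 56 points on or above the upper dashed line are orange, and 12 of the 111 on or below the lower one.

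The largest upward shift was at a site on chromosome 20 8315275 to 8315622, inside the phospholipase C gene PLCB1. Its pileup was 83, rank 61, with the combination, and 13.54, rank 1701, with dexamethasone, a shift of 91.1 points. In whole fragments this was 83 with the combination (Poisson interval 66.1 to 103) and 15 with dexamethasone (8.40 to 24.7), where the library was deeper. The site on chromosome 1 57021192 to 57021384, inside the lipid phosphatase gene PLPP3, had 59 and rank 157 with the combination, against 13.54 and rank 1701 with dexamethasone. A site on chromosome 16 50987393 to 50987779 had 103 and rank 23, against 19.86 and rank 1369. The PLPP3 and chromosome 16 sites were acetylated with estradiol and the combination only. The next shifts, 62.1 and 59.0 points, were on chromosome 12 125215266 to 125215520 and chromosome 1 6319711 to 6319894. The last of these lay on an ER site of the combination list only, and the other 4 on sites of both ER lists.

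The largest downward shifts were smaller and lay on no ER site of either list. The site on chromosome 10 126843896 to 126844004 had a pileup of 16, rank 1361, with the combination, and 40.62, rank 476, with dexamethasone, a shift of −58.3 points. The site on chromosome 8 75743052 to 75743157 had 15 and rank 1412, against 37.91 and rank 535. On chromosome 9 a site at 93805391 to 93805541 had 17 and rank 1296, against 40.62 and rank 476. The remaining pair of sites, on chromosome 16 757254 to 757353 and chromosome 2 108837437 to 108837549, shifted by −54.5 and −53.2 points. The chromosome 10 and chromosome 2 sites were acetylated in all 4 lists, and the other 3 in none.

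Rank shifts differed by ER occupancy. Pairs on a combination ER site had a median shift of 1.66 points (0.28 to 3.03, n = 304), and pairs off one had a median of −7.53 points (−8.61 to −6.39, n = 720). The intervals did not overlap. When kept sites were ranked among themselves the medians were 7.40 points on and −3.34 points off a combination ER site. Ranked by fold enrichment instead of pileup they were −0.0082 and −9.86 points, so the difference between on and off kept its direction while the sign on ER sites did not. The 226 pairs on sites of both ER lists had a median of 2.54 points. The 78 pairs on the combination ER list only had one of 0.34 points, and the 31 pairs on the estradiol ER list only had −6.50 points (−14.2 to 1.93). The 689 pairs on neither list had −7.53 points.

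**Figure D3:**
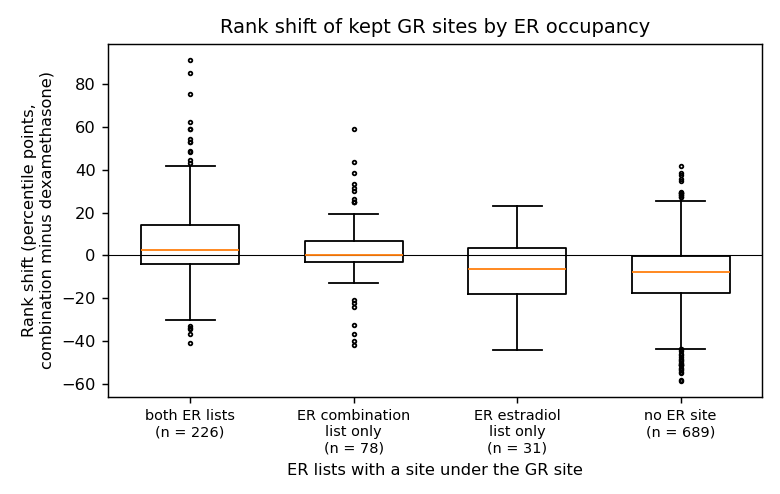
Rank shift of kept GR sites (y axis, percentile points, combination minus dexamethasone) by the ER lists with a site under the GR site (x axis). Boxes span the middle 50% with the median line, whiskers reach 1.5 times the box and circles are pairs beyond them; the medians are 2.54 with both ER lists, 0.34 with the combination list only, −6.50 with the estradiol list only and −7.53 with none.

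The median shift was highest on the strongest ER sites and showed no steady order across the weaker classes. At the 104 pairs on combination ER sites in the strongest 25% of that ER list the median GR shift was 8.74 points. It was −0.68 points at the 89 pairs in the next class, −3.38 points at the 66 pairs in the one after, and −0.86 points at the 45 pairs on the weakest 25%. Spearman's rho between ER percentile and GR shift was 0.421 over the 304 pairs, as a description over sites. By vehicle acetylation the median shift on a combination ER site was 1.07 points with it and 1.85 points without it, and off ER −9.30 and −6.97 points, with overlapping intervals in both cases. The 20 pairs acetylated with estradiol and the combination only had a median of 9.28 points (−2.13 to 17.8), an interval that includes 0. The 43 pairs acetylated with dexamethasone and the combination only had one of −2.57 points (−7.97 to −0.73).

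Peak width followed strength and class. The median width was 138 bp for new and 160 bp for kept combination sites, against 178 bp for kept and 124 bp for missing dexamethasone sites. The smallest width was the fragment length, 94 bp with the combination and 93 bp with dexamethasone. Within the strongest 25% of each list, new sites had a median of 227 bp (215 to 255 bp) and kept combination sites 212 bp, against 213 bp for kept dexamethasone sites and 176 bp for missing sites (161 to 198 bp). In the weakest 25% the medians were 113, 117, 119 and 110 bp in the same order of classes. Strong new sites were thus not narrower than kept sites in the strongest 25%, while missing sites had the lowest median of the 4 classes in each 25%. In the 25% before the weakest the intervals of new and missing sites overlapped, at 126 to 139 and 122 to 129 bp. They also did in the weakest 25%, at 109 to 118 and 107 to 114 bp. Pileups still differed within each 25%: in the strongest, missing sites reached 72.21 and kept dexamethasone sites 167.9.

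**Figure D4:**
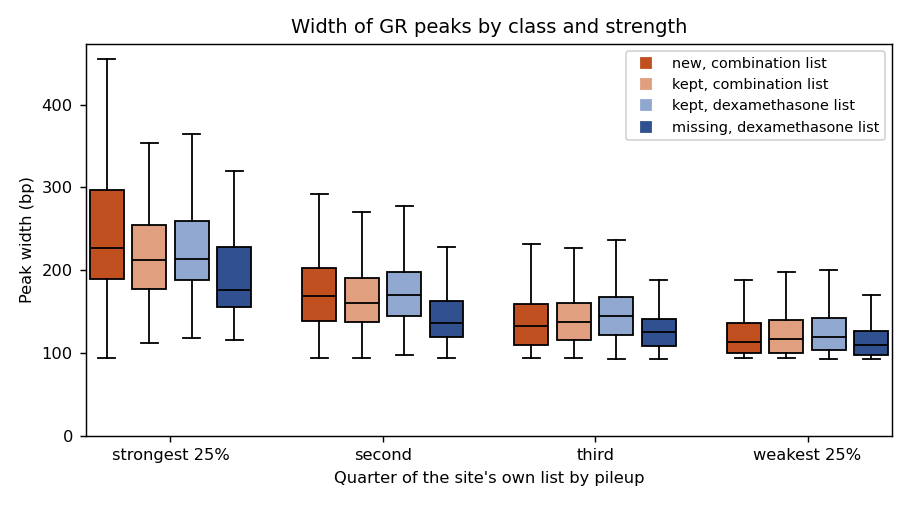
Width of GR peaks (y axis, bp) for new and kept sites of the combination list and kept and missing sites of the dexamethasone list, by class of pileup within the site's own list (x axis). Boxes span the middle 50% with the median line and whiskers reach 1.5 times the box, with points beyond them not drawn; in the strongest class the medians are 227, 212, 213 and 176 bp.

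In kept pairs the combination peak was wider in 364, narrower in 648 and equal in 12. The median difference in width, combination minus dexamethasone, was −15 bp (−18 to −12 bp). It was 7 bp on a combination ER site (−1 to 18 bp) and −20.5 bp off one (−24 to −18 bp). The largest differences were 423 bp with the combination and 97 bp with dexamethasone on chromosome 17 75121547 to 75121969, then 274 and 587 bp on chromosome 11 130403446 to 130403719, and 152 and 423 bp on chromosome 7 29149274 to 29149425. In the chromosome 17 and chromosome 11 cases the wider peak overlapped a pair of peaks in the other list, so the width also reflects how the caller divided the site.

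Summits moved little. The median distance between the combination and dexamethasone summits was 13 bp (12 to 14 bp), 950 of 1024 pairs, 92.8%, lay within 50 bp, and 23 pairs had the same summit base. It was over 100 bp in 19 pairs. On a combination ER site the median was 16 bp and 85.5% of pairs lay within 50 bp. Off one it was 13 bp and 95.8% did. The largest shifts were 216 bp on chromosome 12 43063326 to 43063698, 212 bp on chromosome 2 102601815 to 102602173 and 211 bp on chromosome 2 28833528 to 28834098, and all 3 lay on sites of both ER lists. At the 304 pairs on a combination ER site the combination GR summit lay a median of 25 bp from the ER summit and the dexamethasone GR summit 33 bp. The combination summit was the nearer one in 171 pairs, the dexamethasone summit in 126, and they were equal in 7. The ER site was chosen by overlap with the combination peak and by nearness to its summit. That choice favours the combination summit, so these distances cannot show a move toward ER.

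**Figure D5:**
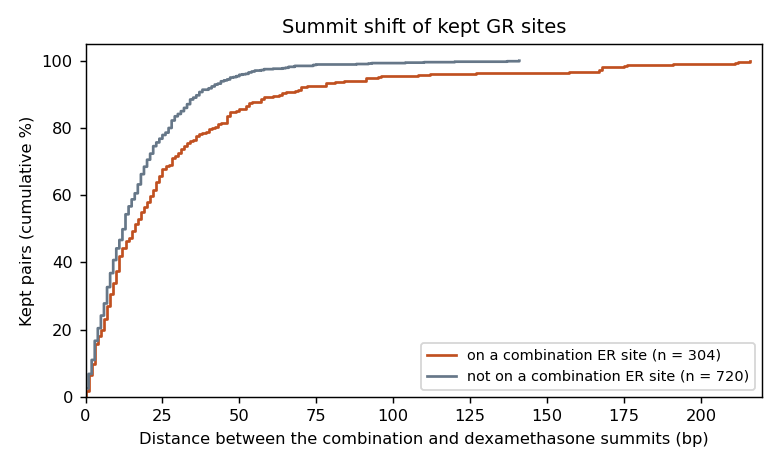
Cumulative share of kept pairs (y axis, %) by the distance between the combination and the dexamethasone GR summit (x axis, bp), for pairs on and off a combination ER site. At 50 bp the curve on ER sites stands at 85.5% and the curve off them at 95.8%.

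New and missing sites were spread over the genome, on all 23 chromosomes with GR peaks. The new share of combination sites ran between 14.9% on chromosome 13 (7 of 47) and 56.2% on chromosome 20 (18 of 32). The missing share of dexamethasone sites ran between 33.9% on chromosome 13 (20 of 59) and 60.0% on chromosome 22 (18 of 30). The intervals of 21 chromosomes held the share of the whole list for new sites.

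Where a new site had a neighbour within 10 kb, the nearest was mostly new itself, and like neighbours were also frequent at kept sites. Another combination GR site lay within 10 kb of 179 of 600 new sites, 29.8% (26.2% to 33.7%), and of 24.1% of kept combination sites (21.5% to 26.9%). The same held for 27.3% of kept and 24.6% of missing dexamethasone sites. Of the 179 new sites with such a neighbour, the nearest was itself new in 112, 62.6% (55.0% to 69.7%), where new sites make up 36.9% of the list. Of the 193 missing sites with a neighbour, it was missing in 98, 50.8% (43.5% to 58.0%), where missing sites make up 43.2%. For kept combination sites the nearest was kept in 75.4% (69.6% to 80.6%), where kept sites make up 63.1%. For kept dexamethasone sites it was kept in 64.1% (58.1% to 69.7%), where kept sites make up 56.8%. Sites within 10 kb chained into 7 runs of 3 or more new sites, 28 sites in all, and 6 runs of 3 or more missing sites, 18 sites in all.

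The longest runs of new sites, singled out after their values were seen, lay at 2 genes. The GREB1 region, named for growth regulation by estrogen, held 6 new sites between chromosome 2 11638644 and 11679922 and no dexamethasone GR site. Their pileups in order of position were 92, 11, 20, 26, 28 and 70, with ranks 44 and 106 at the outer sites. All 6 lay on an estradiol ER site and 5 on a combination ER site. H3K27ac was called at 4 of them with the combination and at 0 with vehicle or dexamethasone. The calcium-activated chloride channel gene ANO1 held 5 new sites between chromosome 11 69950644 and 69967044, with pileups of 84, 72, 28, 23 and 12. Of these, 4 lay on a combination ER site and 3 on an estradiol ER site, and all 5 were acetylated with the combination and 0 with vehicle or dexamethasone.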

How the data were processed

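GR, ER and H3K27ac were measured by chromatin immunoprecipitation and sequencing in Ishikawa cells, 1 library a group. The submitters' processing notes name Bowtie 1.1.2, MACS2 2.1.0.20140616 and hg19. Each library was called on its own against a control, per the file headers, with a p cutoff of 1e-10, a genome size set to 2.7 Gb, no more than 1 tag kept at a position and the larger library scaled to the smaller. Which control library this was is not given in the sources used here. The deposited pileup is a signal, the scaled fragment coverage at the summit. The authors also deposited −log10 p-values and −log10 q-values; the q-value column is filled although the headers say that none were calculated. The deposited fold enrichment is the authors' ratio of pileup to local control background, with 1 added to both as the values show. The deposited positions and widths are 1-based hg19 bp.

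Lists were matched by 1 bp overlap, and kept peaks paired 1 to 1 by nearest summit. Pileups divided by the header's scale factor were whole fragments in 100% of peaks (tolerance 0.02). Shares carry exact 95% Clopper-Pearson intervals and medians order-statistic intervals, both over peaks. No test between groups was possible with 1 library each. Named sites were the 5 highest new and missing sites by pileup, the 5 kept sites with the highest mean percentile over both lists, the 5 largest rank shifts each way, and the 3 largest summit and width differences; others are said to be chosen after their values were seen. The members and lists were chosen with earlier results of these data known. Alternatives changed the matching, ranking value, strength limits, list length and distances.

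Without a genome or annotation of hg19, sequences, motifs, promoter shares and gene lists were not analysed here. Gene names beside sites are background knowledge of the hg19 map and carry no distance; each symbol was checked to be on the same chromosome in RefSeq. The code for overlap, 1 to 1 pairing and summit distance was tested on simulated data, and the rank code was not. Python 3.11.15, numpy 2.4.6, pandas 2.3.3, scipy 1.17.1 and matplotlib 3.10.9 were used.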

Additional observations from a re-analysis of the deposited data

How the results depend on the processing

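Of 94 alternative values, 37 stayed within the interval of the reported value or within 1.5 times a count. The kept share of combination sites was 66.3% with the stronger 50% of both lists by −log10 q, 73.7% with the stronger 50% of the combination list against the whole other list, and 58.8% with lists of equal length. The kept share of dexamethasone sites was 59.4% with intervals within 1 kb, 59.5% with the stronger 50% of both lists and 80.5% with the stronger 50% of the dexamethasone list against the whole other list.

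The median rank shift was −6.36 points by fold enrichment, −6.74 by −log10 p, −0.59 among kept sites only (−1.37 to 0.20) and −1.81 with lists of equal length. Pairs higher and lower by at least 25 points numbered 55 and 179 by fold enrichment, 68 and 201 by −log10 p, 66 and 83 with lists of equal length, and 77 and 67 among kept sites only, against 56 and 111 by pileup in the whole lists, so the balance turned round among kept sites only. On combination ER sites the median was −0.0082 points by fold enrichment, a change of sign, and 7.40 among kept sites only; off them it was −9.86 and −3.34. The cause was not tested.

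Median widths in the stronger 50% were 191 bp (new), 187 bp (kept, combination), 197 bp (kept, dexamethasone) and 144 bp (missing). By 25% classes, strongest first, new sites had 227, 169, 132 and 113 bp. Kept combination sites had 212, 137 and 117 bp, leaving out the class after the first, kept dexamethasone sites 213, 170, 145 and 119 bp, and missing sites 176, 136 and 110 bp, leaving out the class before the last. Among pairs in the stronger 50% of both lists the median summit distance was 11 bp and 95.5% lay within 50 bp.

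The share with a neighbour was 19.7% of new, 17.4% of kept combination, 21.2% of kept dexamethasone and 19.8% of missing sites within 5 kb. Within 50 kb it was 46.7%, 38.4%, 41.4% and 38.4% in that order, and in the stronger 50%, at 10 kb, 23.5%, 18.8%, 21.3% and 21.3%. With H3K27ac allowed within 1 kb, vehicle acetylation was at 42.3% of new, 41.2% of kept combination, 41.1% of kept dexamethasone and 51.1% of missing sites, and the estradiol and combination pattern at 20.5%, 0.973%, 0.97% and 0.383%. Chosen after seeing the data were every overlapping pair, ranks among kept sites by ER occupancy, and the limit on control background. No paired analysis was possible because each group holds 1 library. With 1 library a side the intervals on shares cover counting error only, and the weakest sites stand near the calling threshold.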

Other observations

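The percentile of ER within its own list was slightly lower with the combination where GR was new. At the 437 new GR sites on sites of both ER lists the median ER percentile was 84.9 with the combination and 88.1 with estradiol, and the median difference within a site was −2.20 points (95% order-statistic interval −2.69 to −1.57). At the 227 kept sites on both ER lists it was 71.1 with the combination and 71.0 with estradiol, with a median difference of −0.53 points (−1.75 to 0.15). The ER lists differ in length, with 2382 sites for the combination and 3560 for estradiol. The same place counted from the top gives a lower percentile in the shorter list. These percentiles are thus values within each list and show no change of level or of rank position.

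The 6 runs of missing sites held 3 sites each. The run with the highest pileup, 53.26, lay between chromosome 22 39683211 and 39688282, with all 3 sites acetylated with vehicle, dexamethasone and the combination. A run between chromosome 17 37818816 and 37831495 had 2 of 3 sites acetylated with vehicle, 0 with dexamethasone and 3 with the combination. No missing run held a combination GR site.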
